A study of Mus musculus with 82 samples.

Results

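The genes described here are 43 targets of the transcription factor Myc that act in the nucleolus, in translation or in biosynthesis. They form a named list that no threshold on their values entered, and each was read by the probe set with 1 gene symbol that had the highest mean over all 82 arrays. Of the 43, 41 were measured in this way, among 12393 genes with such a probe set. Dkc1 was not analysed here, and the only probe set of Mrto4 listed several genes and was not used. All 41 passed a filter on dim genes that 8592 genes passed. By role, 6 of the 41 are nucleolar scaffold proteins or RNA polymerase I subunits, 6 belong to small nucleolar ribonucleoproteins (snoRNPs), 5 process the small ribosomal subunit and 13 assemble the large one. Of the remaining 11, 3 are translation factors, 6 are enzymes of nucleotide, polyamine and one-carbon metabolism, and 2 are mitochondrial chaperones.

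Myc, with its partner Max, binds E-box sequences and raises transcription of genes that build ribosomes. RNA polymerase I transcribes the precursor of the ribosomal RNAs in the nucleolus, snoRNPs modify and help cleave it, and assembly factors turn the pieces into small and large subunits. The same programme raises enzymes that supply nucleotides, polyamines and methyl groups, and chaperones that fold mitochondrial proteins. In some B-lineage tumours of mice and humans, deregulated Myc is an early lesion. Plasma cells are in addition secretory cells with a heavy load of protein synthesis.

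All samples came from BALB/c.iMycEμ mice, aged at least 8 weeks, given 0.5 ml of pristane into the peritoneum, an oil that induces granulomas in which plasma cell tumours arise. The iMycEμ allele is a Myc gene inserted at the immunoglobulin heavy-chain locus, so every group carried it and every group had received pristane, with no mouse without either among the samples. Cells stained by methyl green pyronin, which marks RNA-rich plasma cells, were captured by laser microdissection from frozen granuloma sections (captured cells, labelled as nascent plasma cell tumour cells), and undissected sections of granuloma were taken as the whole tissue. Study 1 sampled captured cells at days 7, 17, 33, 46 and 104 with 5 arrays each and whole granuloma at days 7, 17, 33 and 104 with 3 arrays each. Study 2 sampled days 7, 17, 33, 49 and 105, with 6 arrays of captured cells and 3 of whole granuloma each. Arrays that shared a specimen code in their titles were averaged, which gave 15 captured and 8 whole specimens in study 1, and 15 of each in study 2. Day 46 had no whole granuloma and entered no comparison of sample types. Day 104 of study 1 was a single specimen. Nothing in the labels ties a specimen code to 1 mouse, so p-values measure the spread between specimens.

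Sequences upstream of 5 members are shown because they bear on Myc binding. The first 4 are the members with the largest mean difference between captured cells and whole granuloma among those higher in captured cells of both studies, and Nop2 was added afterwards because its upstream stretch holds a canonical E-box. Each is the 250 bases before an annotated start site from RefSeq (GRCm38.p6), 5′ to 3′ on the strand of the gene. For Nop56 and Cad the annotated gene begins before that site, at 130274367 and 31054620, inside the stretch shown. Capitals mark CACGTG, the canonical E-box, or CACGCG and its reverse complement CGCGTG, a variant E-box.
Nop56, chr2:130274162-130274411, plus strand: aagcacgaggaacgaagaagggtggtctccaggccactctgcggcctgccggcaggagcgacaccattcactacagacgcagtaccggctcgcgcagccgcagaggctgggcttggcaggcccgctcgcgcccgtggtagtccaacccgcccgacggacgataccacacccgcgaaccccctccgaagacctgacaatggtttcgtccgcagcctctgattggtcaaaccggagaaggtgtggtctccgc
Ppan, chr9:20887925-20888174, plus strand: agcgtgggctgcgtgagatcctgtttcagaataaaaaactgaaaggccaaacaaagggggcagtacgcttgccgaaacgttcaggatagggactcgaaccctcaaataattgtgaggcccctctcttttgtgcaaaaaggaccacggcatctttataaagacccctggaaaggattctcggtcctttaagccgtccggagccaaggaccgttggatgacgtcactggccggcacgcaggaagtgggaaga
Cad, chr5:31054530-31054779, plus strand: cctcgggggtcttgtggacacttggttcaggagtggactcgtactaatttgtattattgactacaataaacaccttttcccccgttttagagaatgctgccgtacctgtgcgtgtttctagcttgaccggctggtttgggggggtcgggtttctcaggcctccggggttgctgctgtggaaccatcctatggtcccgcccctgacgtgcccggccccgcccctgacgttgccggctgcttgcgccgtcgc
Nolc1, chr19:46075597-46075846, plus strand: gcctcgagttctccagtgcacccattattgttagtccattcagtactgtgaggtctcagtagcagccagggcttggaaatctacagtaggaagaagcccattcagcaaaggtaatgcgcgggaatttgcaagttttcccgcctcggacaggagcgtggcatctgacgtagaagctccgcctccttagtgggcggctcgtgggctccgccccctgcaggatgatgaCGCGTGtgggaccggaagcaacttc
Nop2, chr6:125131633-125131882, plus strand: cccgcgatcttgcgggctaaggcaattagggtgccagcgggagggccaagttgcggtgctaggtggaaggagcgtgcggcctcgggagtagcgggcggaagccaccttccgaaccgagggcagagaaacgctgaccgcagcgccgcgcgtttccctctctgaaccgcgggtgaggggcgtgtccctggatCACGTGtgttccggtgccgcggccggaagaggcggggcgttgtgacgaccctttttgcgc
Windows of 300 bases, from 250 before to 50 after the start site, were found for 38 of the 43 members. CACGTG, which reads the same on both strands, lay in at least 1 window of 9 of these 38 members (23.7%), against 8.09% of all 27025 genes with a window. CACGCG on either strand lay in 15 of the 38 (39.5%), against 10.5% of all genes. The 250 bases before the start held 58.8% G and C in the median member window and 52.4% in the median of all 32851 windows. CACGTG stood 60 bases before the start of Nop2, 18 before a start of Nme1, 80 before one of Hspd1 and 17 after that of Wdr43, and CGCGTG stood 25 bases before the start of Nolc1. These are matches of letters and not measured binding sites.

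Before any comparison, 1 array stood apart. It was an array of captured cells of day 49 in study 2, the second of its specimen. Its median correlation with the other captured-cell arrays of study 2, over 12393 genes, was 0.239, where the lowest of the others was 0.869. Probe sets for bacterial RNAs added before hybridisation averaged 14.2 (log2, as deposited) on it and 8.41 to 12.1 on the others, while those for mouse 18S ribosomal RNA averaged 6.97 against 11.3 to 13.2. The median member read 5.65 on it and 8.20 to 9.62 on the other 29 arrays. Values by specimen given here leave this array out, so that its specimen rests on its other array. Tests are given as planned, over all 82 arrays, and then without it, which was decided after seeing the data. The members' levels and the likeness of each array to its group are plotted for all arrays.

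RNA quality also moved with the groups. The log2 signal of the 3′ probe sets of Actb and Gapdh exceeded that of the 5′ probe sets by a median of 4.35 in captured cells and 1.63 in whole granuloma of study 2, and by 4.65 and 3.28 in study 1. The ranges over arrays did not overlap in study 2, at 3.10 to 5.31 against 1.39 to 1.84. A larger excess is read where messages are truncated or were amplified in more rounds. The median over all probe sets was 7.11 to 7.33 for whole granuloma of study 2 and 5.31 to 5.43 for its captured cells as deposited, and 5.73 to 5.82 against 4.97 to 5.11 in study 1. Captured and whole samples were therefore compared on values quantile-normalized over all arrays, and days were compared within a tissue type on the values as deposited. In captured cells of study 2 the SD of a member between arrays of 1 specimen had a median of 0.33 over the 41, and between specimens of 1 day 0.39. In both kinds of bulk sample, fewer cells of a type and less RNA per cell cannot be told apart.

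**Figure D1:**
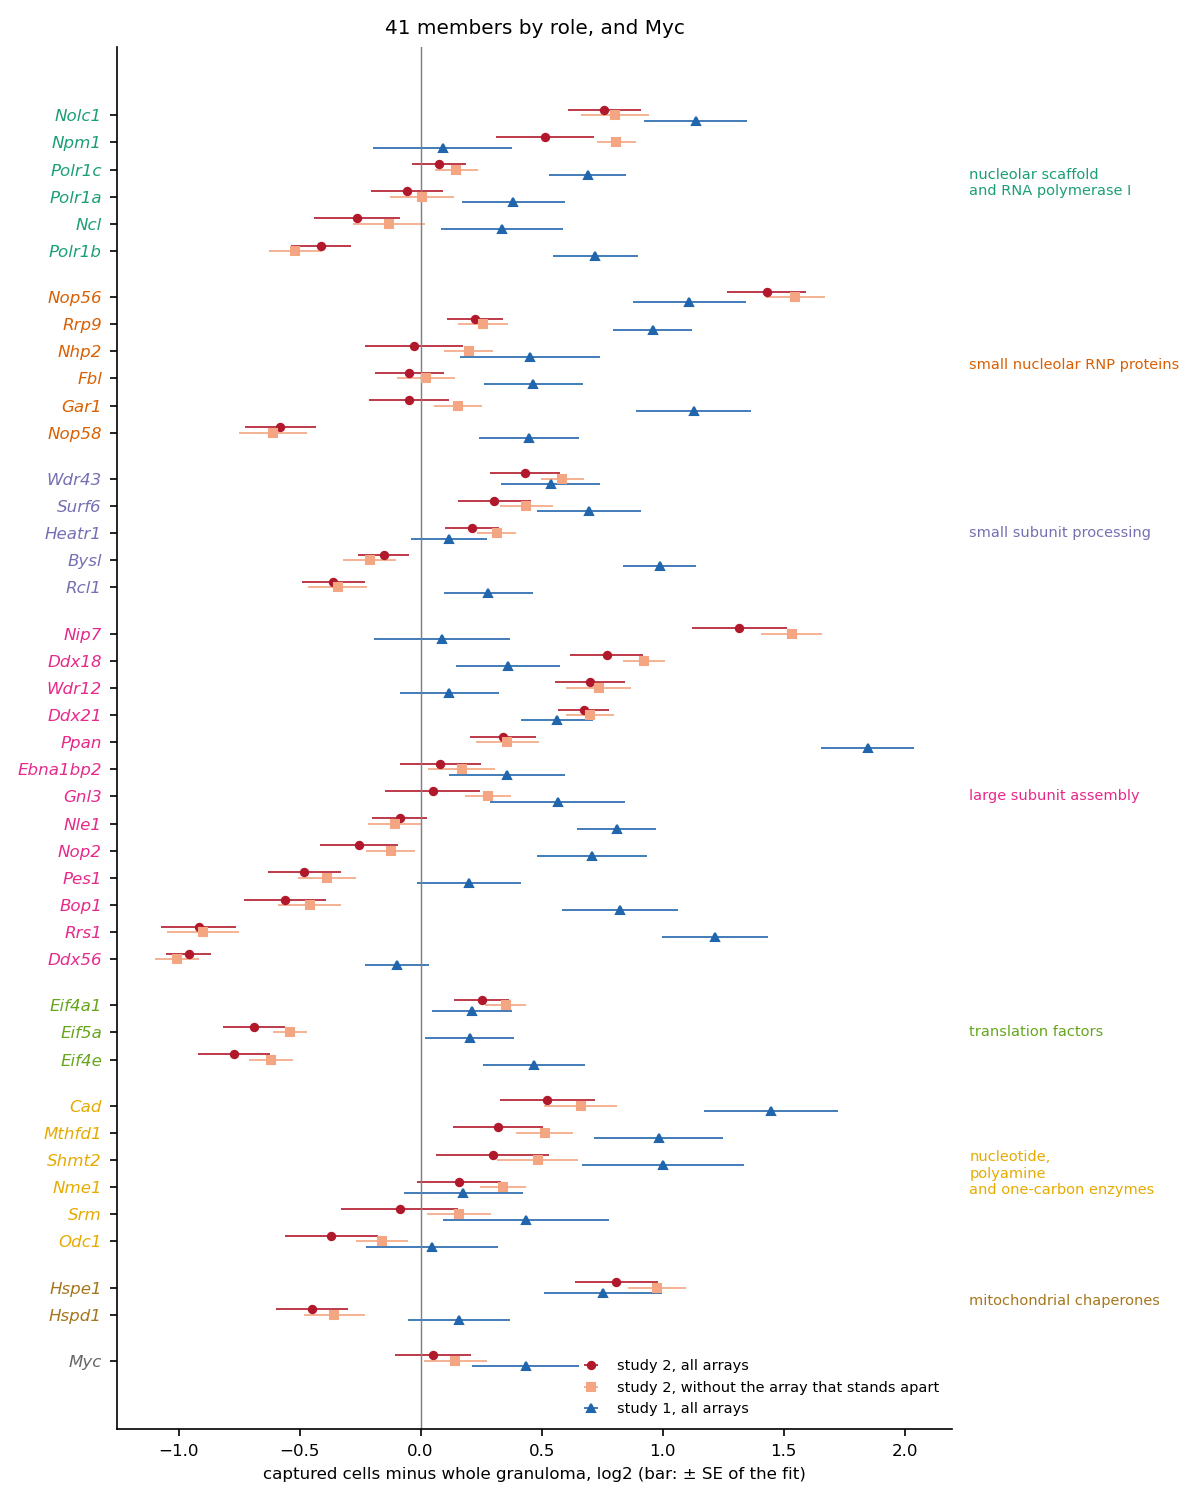
Captured cells minus whole granuloma on the quantile-normalized log2 scale, with ± SE of the limma fit, for study 2 over all arrays (circles) and without the array that stood apart (squares) and for study 1 over all arrays (triangles), for the 41 members ordered by role and for Myc. In study 1, 40 of the 41 members lie above 0, and in study 2 they lie on both sides, from -0.96 for Ddx56 to 1.43 for Nop56.

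In study 1 the members that passed the test were all higher in captured cells, and in study 2 they split. In study 1, 20 of 41 members were higher and 0 lower (limma with Benjamini-Hochberg adjustment over 8592 genes, threshold 0.05), where 31.5% of all genes were higher and 29.0% lower. The 1 member below 0 was Ddx56, at -0.10 (adjusted p = 0.531). The median member differed by 0.47 (log2) and the median of all genes by 0.06. In study 2, 12 members were higher and 10 lower, against 34.4% and 35.4% of all genes, with a median member of 0.05 and a median gene of -0.02. The share of members past the threshold in study 2 was thus near or below the background in either direction over all arrays. Without the array that stood apart, 19 members were higher and 10 lower in study 2 (38.6% and 35.9% of all genes), with a median of 0.17. The same fit gave 26 higher and 0 lower in study 1 (35.9% and 31.7%), and every call of the fit over all arrays was kept in both studies.

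The same 7 of 41 members were higher in captured cells of both studies, and none was lower in both, where 18.5% and 18.0% of all genes were. The share of members higher in both was thus near that of all genes over all arrays. The 7 were Nop56, Ppan, Cad, Nolc1, Hspe1, Ddx21 and Wdr43. Of the 6 with a second probe set past the filter, all but Nop56 and Cad were also called higher in both studies on it, and Ppan has no such probe set. A further 3 members, Rrs1, Bop1 and Polr1b, were lower in study 2 and higher in study 1, a pattern of 4.47% of all genes. Fbl, Odc1 and Polr1c had this pattern on their second probe sets. Without the array, 13 members were higher in both studies (22.0% of genes), 0 lower in both (19.1%) and 5 opposite (5.52%). The 6 added to the first group were Ddx18, Gnl3, Mthfd1, Rrp9, Shmt2 and Surf6, and the 2 added to the last were Eif4e and Nop58.

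**Figure D2:**
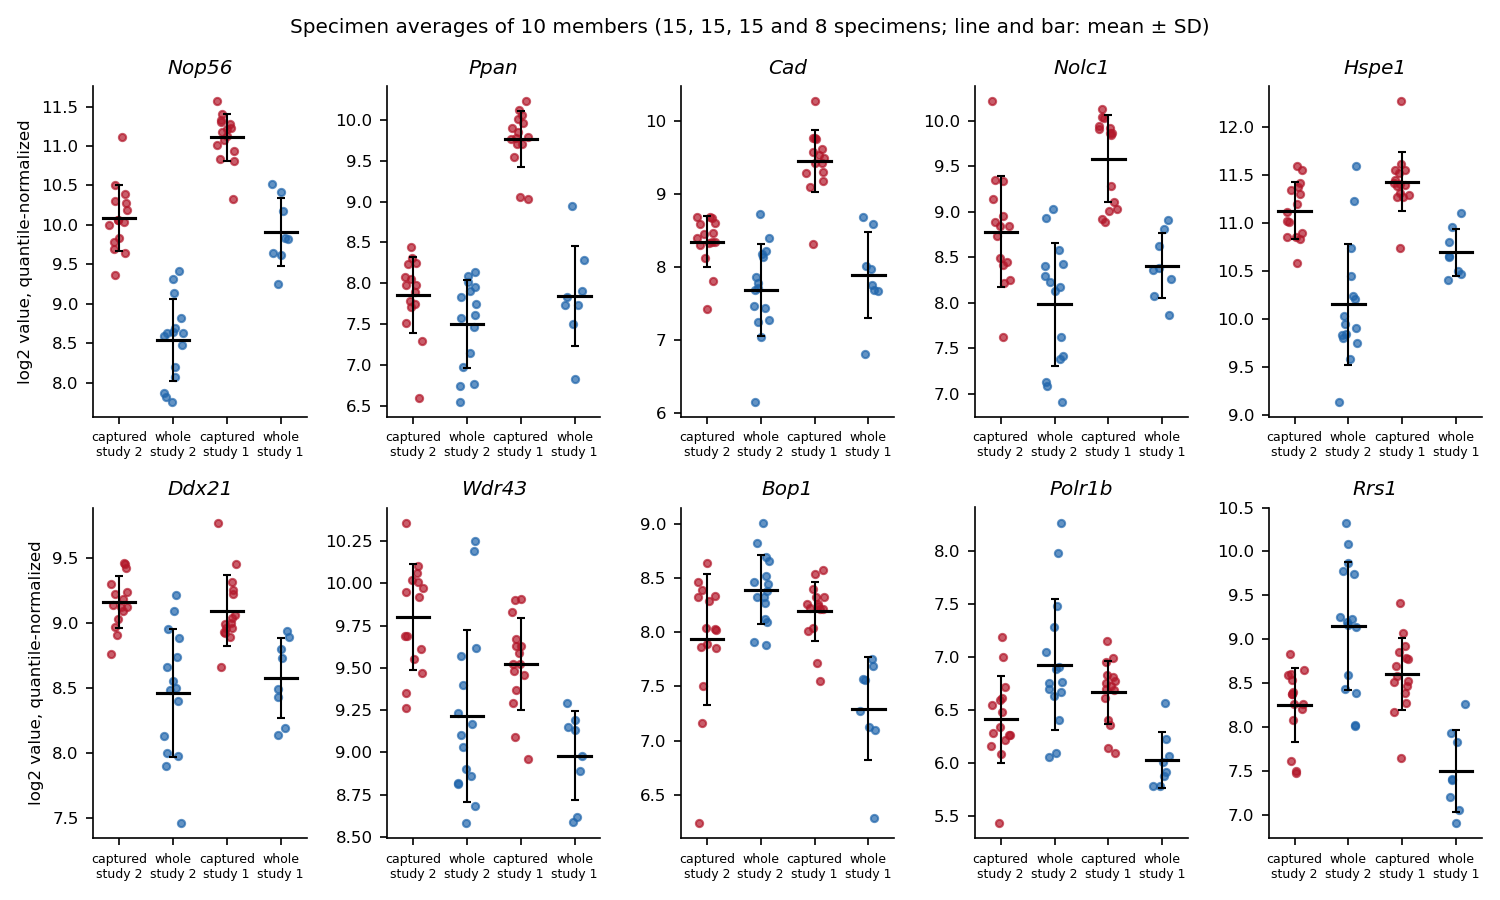
Quantile-normalized log2 values of each specimen for the 7 members higher in captured cells of both studies and, at the end, for Bop1, Polr1b and Rrs1, which went opposite ways; the line and bar are the mean ± SD of 15, 15, 15 and 8 specimens. The captured specimens of study 1 lie above the whole granuloma for Ppan without overlap, and for Rrs1 the whole granuloma of study 2 holds the highest values.

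Of the scaffold and polymerase I genes, Nolc1 was the member higher in both studies. Nolc1 encodes a nucleolar phosphoprotein (Nopp140) that binds snoRNPs and polymerase I. It read 7.62 to 10.22 (median 8.84) in captured cells and 6.91 to 9.03 (median 8.17) in whole granuloma of study 2. The values of study 1 were 8.89 to 10.12 (median 9.87) and 7.86 to 8.91 (median 8.37), so that the highest captured specimen of either study stood above all whole granulomas while the lower ones overlapped. The difference was 0.76 ± 0.15 (SE; adjusted p = 2.86e-05) in study 2 and 1.14 ± 0.21 (adjusted p = 2.08e-05) in study 1, and Nolc1 was higher in the captured sample of 14 of 15 specimens with both tissue types in study 2 and 5 of 5 in study 1.

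Polr1b, the second-largest polymerase I subunit, went opposite ways. In study 2 it read 5.43 to 7.19 (median 6.34) in captured cells and 6.06 to 8.27 (median 6.76) in whole granuloma, and in study 1 6.09 to 7.15 (median 6.73) and 5.78 to 6.57 (median 5.96). The captured ranges of the studies overlapped, and the whole granuloma of study 2 had the higher median of the whole granulomas. The differences were -0.41 ± 0.12 (adjusted p = 0.00372) and 0.72 ± 0.18 (adjusted p = 6.16e-04). Polr1c, a subunit shared by polymerases I and III, was higher in study 1, at 0.69, and did not pass in study 2, at 0.07. Its second probe set was lower in study 2, at -0.39 (adjusted p = 0.0399), and higher in study 1, at 0.82 (adjusted p = 0.0037). The largest subunit, Polr1a, passed in neither study, at -0.06 and 0.38. The second probe set of Polr1a was higher in both, by 0.63 (adjusted p = 3.08e-05) and 1.07 (adjusted p = 2.59e-06). Npm1, a histone chaperone and abundant nucleolar scaffold, was higher in study 2 by 0.52 (adjusted p = 0.0226), with specimens at 12.26 to 12.97 (median 12.56) in captured cells and 11.09 to 12.25 (median 11.73) in whole granuloma, ranges that did not overlap. Without the array that stood apart its difference was 0.81 (adjusted p = 1.00e-11), and in study 1 it was 0.09, not past the threshold. Its second probe set was at -0.15 in study 2 (adjusted p = 0.508). Ncl, nucleolin, passed in neither, at -0.26 and 0.34, while its second probe set was higher in both, by 0.35 (adjusted p = 0.00174) and 0.79 (adjusted p = 7.19e-06).

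Among the snoRNP proteins, Nop56 was higher in both studies. Over all arrays its partner Nop58 was lower in study 2 and did not pass in study 1. Nop56 and Nop58 are paired core proteins of the box C/D snoRNPs that guide methylation of ribosomal RNA. Nop56 read 9.36 to 11.12 (median 10.06) in captured cells and 7.76 to 9.42 (median 8.62) in whole granuloma of study 2, and 10.33 to 11.57 (median 11.18) and 9.25 to 10.52 (median 9.83) in study 1. Captured specimens lay above whole granuloma in 15 of 15 and 5 of 5 specimens with both, with a small overlap of the ranges. The differences were 1.43 ± 0.16 (adjusted p = 6.76e-10) and 1.11 ± 0.23 (adjusted p = 9.54e-05), a fold of 2.69 and 2.16. The probe sets of Nop56 disagreed in study 2: its second one was at 0.05 there (adjusted p = 0.764), and at 1.27 in study 1 (adjusted p = 3.00e-06).

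Nop58 read 7.25 to 9.33 (median 8.17) in captured cells and 8.04 to 9.55 (median 8.56) in whole granuloma of study 2, a difference of -0.58 ± 0.14 (adjusted p = 5.82e-04). In study 1 it differed by 0.45 (adjusted p = 0.0584), and by 0.46 (adjusted p = 0.0452) without the array. Fbl, the methyltransferase of the same particles, differed by -0.05 in study 2, and in study 1 it was higher by 0.47 (adjusted p = 0.0462), a call kept in 9 of 18 fits that left out a specimen of that study. The second probe set of Fbl was lower in study 2, at -1.01 (adjusted p = 1.33e-06), and higher in study 1, at 0.87 (adjusted p = 0.00168). Gar1 belongs to the box H/ACA particles that guide pseudouridylation, and in study 1 it was higher by 1.13 (adjusted p = 9.14e-05), its captured specimens at 9.06 to 10.39 (median 9.80) lying clear of the whole granuloma at 8.33 to 8.92 (median 8.63). In study 2 it differed by -0.05. Rrp9, a protein of the U3 particle, was higher in study 1 by 0.96 (adjusted p = 4.02e-06), also without overlap of the ranges, and differed by 0.23 in study 2. Nhp2, another H/ACA protein, passed in neither study.

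Of the 5 genes that process the small subunit, Wdr43 (Utp5, a part of the complex that binds nascent precursor RNA) was higher in both studies. It read 9.26 to 10.36 (median 9.92) in captured cells and 8.58 to 10.25 (median 9.10) in whole granuloma of study 2, and 8.96 to 9.91 (median 9.52) and 8.59 to 9.29 (median 9.06) in study 1, with overlap in both. The differences were 0.43 ± 0.14 (adjusted p = 0.00804) and 0.54 ± 0.20 (adjusted p = 0.0227). Bysl, bystin, which helps mature the precursor of the 40S subunit, was higher in study 1 by 0.99 (adjusted p = 7.25e-07) with 8.27 to 9.16 (median 8.84) in captured cells and 7.41 to 8.18 (median 7.79) in whole granuloma, which did not overlap, and differed by -0.15 in study 2. Its second probe set was higher in both studies, by 0.88 in study 2 (adjusted p = 1.15e-08) and 0.78 in study 1 (adjusted p = 8.66e-05). Surf6 was higher in study 1 by 0.70 and differed by 0.30 in study 2. Rcl1, an endonuclease-like processing factor, was lower in study 2, at -0.36, and differed by 0.28 in study 1. Heatr1, which supports precursor transcription, passed in neither over all arrays, and was higher in study 2 by 0.31 (adjusted p = 5.80e-04) without the array. Over all arrays its second probe set was higher in study 2, by 1.54 (adjusted p = 1.46e-12), and at -0.15 in study 1 (adjusted p = 0.521).

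The 13 large-subunit assembly genes spanned the widest range. Ppan, which is needed for processing of the large-subunit RNA, had the largest difference of any member in study 1. There it read 9.03 to 10.23 (median 9.79) in captured cells and 6.83 to 8.94 (median 7.78) in whole granuloma, with no overlap, a difference of 1.85 ± 0.19 (adjusted p = 3.12e-10) and a fold of 3.60. In study 2 it read 6.60 to 8.45 (median 7.98) and 6.55 to 8.14 (median 7.61), and differed by 0.34 ± 0.14 (adjusted p = 0.0262). Here the ranges of the whole granulomas of the studies overlapped, and every captured specimen of study 1 exceeded every one of study 2. The call in study 2 was kept in 11 of 15 fits that left out a specimen.

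Ddx21 and Ddx18 are nucleolar DEAD-box RNA helicases. Ddx21 read 8.76 to 9.46 (median 9.14) in captured cells and 7.46 to 9.21 (median 8.50) in whole granuloma of study 2, and 8.66 to 9.77 (median 9.00) and 8.14 to 8.94 (median 8.61) in study 1. The captured values were the higher ones, with overlap, by 0.67 ± 0.10 (adjusted p = 4.25e-07) and 0.56 ± 0.15 (adjusted p = 0.00131). Ddx18 was higher in study 2 by 0.77 (adjusted p = 2.40e-05) and by 0.36 in study 1 (adjusted p = 0.143; 0.0104 without the array). Its second probe set read -0.06 in study 2. Ddx56, a further helicase of the family, was lower in study 2, at -0.96 (adjusted p = 8.60e-12), in 15 of 15 specimens with both tissue types, and differed by -0.10 in study 1.

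Rrs1 and Bop1 were the other members with opposite calls on the probe set with the highest mean. Rrs1 recruits 5S ribosomal RNA and its proteins to the assembling subunit, and it read 7.47 to 8.83 (median 8.38) in captured cells and 8.01 to 10.33 (median 9.20) in whole granuloma of study 2, a difference of -0.92 ± 0.15 (adjusted p = 1.97e-06). In study 1 it read 7.65 to 9.41 (median 8.59) and 6.90 to 8.26 (median 7.39), a difference of 1.22 ± 0.22 (adjusted p = 1.07e-05). The captured cells of the studies overlapped widely, and the whole granuloma of study 2 stood above that of study 1. Bop1 forms a complex with Pes1 and Wdr12 that is needed for the large subunit. It read 6.24 to 8.64 (median 8.03) and 7.88 to 9.01 (median 8.38) in study 2, -0.56 ± 0.17 (adjusted p = 0.00355), and 7.55 to 8.57 (median 8.24) and 6.29 to 7.75 (median 7.42) in study 1, 0.82 ± 0.24 (adjusted p = 0.00328). Its partners did not share 1 direction: in study 2, Pes1 was lower, at -0.48, and Wdr12 higher, at 0.70, and in study 1 they differed by 0.20 and 0.12 and did not pass.

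Nip7, which binds precursor RNA of the large subunit, was higher in study 2 by 1.32 ± 0.20 (adjusted p = 2.04e-07), with 9.36 to 10.51 (median 9.94) in captured cells and 7.54 to 9.31 (median 8.40) in whole granuloma and no overlap, while it differed by 0.09 in study 1. Its second probe set was higher in both studies, by 0.92 (adjusted p = 1.91e-10) and 0.93 (adjusted p = 7.13e-07). Non-overlapping ranges were seen for 2 members in study 2, Npm1 and Nip7, and for 5 in study 1 (Bysl, Gar1, Nle1, Ppan and Rrp9), and over all genes tested for 7.51% and 19.6%. Nle1 and Nop2, the latter a methyltransferase of large-subunit RNA, were higher in study 1, by 0.81 and 0.71, and differed by -0.09 and -0.25 in study 2. Gnl3 (nucleostemin) and Ebna1bp2 passed in neither over all arrays. The second probe set of Ebna1bp2 was higher in both, by 0.47 in study 2 (adjusted p = 2.50e-06) and 1.34 in study 1 (adjusted p = 1.55e-12). Without the array Gnl3 was higher in both, by 0.28 and 0.57.

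The 3 translation factors had calls in both directions in study 2 and none in study 1 over all arrays. Eif4e, which binds the cap of messenger RNA, was lower in captured cells of study 2, at -0.77 (adjusted p = 1.82e-05), and Eif5a, an elongation factor that carries hypusine, was at -0.69 (adjusted p = 1.10e-05). In study 1 they differed by 0.47 and 0.20, not past the threshold. Eif4a1, the helicase that unwinds leaders, was higher in study 2 by 0.25 (adjusted p = 0.0495), a call kept in 6 of 15 fits that left out a specimen. Probe sets disagreed here: the second probe set of Eif4a1 was lower by 0.89 and that of Eif4e higher by 0.48, both past the threshold. Over the 25 members with a second probe set past the filter, the sign was the same in 16 in study 2 and 23 in study 1, and Eif4a1 and Eif4e were the 2 with opposite calls in study 2.

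Of the enzymes, Cad was higher in both studies. Cad carries out the first steps of pyrimidine synthesis. It read 7.42 to 8.70 (median 8.40) in captured cells and 6.15 to 8.73 (median 7.71) in whole granuloma of study 2, and 8.32 to 10.28 (median 9.50) and 6.79 to 8.69 (median 7.86) in study 1. The captured cells were the higher ones by 0.52 ± 0.20 (adjusted p = 0.0164; 1.72e-04 without the array) and 1.45 ± 0.28 (adjusted p = 2.57e-05), with overlap. The second probe set of Cad passed in neither study, at 0.15 (adjusted p = 0.424) and 0.30 (adjusted p = 0.282). Shmt2 and Mthfd1, enzymes of the folate cycle in mitochondria and cytosol, were higher in study 1 by 1.00 and 0.98 and, without the array, in study 2 by 0.48 and 0.51. The second probe set of Shmt2 did not pass in study 1, at 0.12 (adjusted p = 0.634), and without the array it was lower in study 2, at -0.37 (adjusted p = 0.0245), while that of Mthfd1 was at 0.07 in study 2 without the array (adjusted p = 0.624). Odc1, which starts polyamine synthesis, and Srm, spermidine synthase, passed in neither study over all arrays, at -0.37 and -0.09 in study 2 and 0.05 and 0.43 in study 1. The second probe set of Odc1 was lower in study 2, at -0.42 (adjusted p = 0.00227), and higher in study 1, at 0.42 (adjusted p = 0.031). Nme1, a nucleoside diphosphate kinase, passed in neither study either, and without the array it was higher in study 2 by 0.34 (0.01 on its second probe set, adjusted p = 0.867).

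The mitochondrial chaperones split. Hspe1 (Hsp10) was higher in both studies, with 10.58 to 11.59 (median 11.12) in captured cells and 9.14 to 11.59 (median 9.95) in whole granuloma of study 2, and 10.74 to 12.27 (median 11.41) and 10.41 to 11.10 (median 10.65) in study 1. The ranges overlapped through a few high whole granulomas in study 2 and a low captured specimen in study 1. The differences were 0.81 ± 0.17 (adjusted p = 7.26e-05) and 0.76 ± 0.24 (adjusted p = 0.00756). Hspd1 (Hsp60), which forms the folding chamber that Hspe1 caps, was lower in study 2, at -0.45 (adjusted p = 0.00725) and differed by 0.16 in study 1.

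Myc itself passed in neither study over all arrays. It read 8.95 to 10.92 (median 10.24) in captured cells and 8.59 to 11.42 (median 10.10) in whole granuloma of study 2, and 10.11 to 11.53 (median 11.07) and 9.21 to 11.59 (median 10.38) in study 1, with wide overlap in both. The differences were 0.05 ± 0.16 (adjusted p = 0.775) and 0.43 ± 0.22 (adjusted p = 0.0878; 0.0354 without the array). Whether its probe set reads the inserted gene as well as the endogenous one was not tested. Of the other genes of the network, Max was lower in study 2, at -1.003 (adjusted p = 7.15e-08) and differed by 0.31 in study 1. The antagonists Mxd3 and Mxd4, which compete for Max and repress E-box genes, were higher in both: Mxd3 by 1.79 and 1.82 and Mxd4 by 1.38 and 0.95. Over the 9 genes of the network, 4 were higher and 2 lower in study 2, and 3 and 1 in study 1 (6 and 1 without the array). Over all arrays these were 44.4% and 22.2% in study 2, against 34.4% and 35.4% of all genes, and 33.3% and 11.1% in study 1, against 31.5% and 29.0%, so that the share higher in study 1 was near the background.

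The difference between the studies was itself tested over days 7, 17, 33 and 104 or 105. Captured minus whole was smaller in study 2 than in study 1 for 15 members and larger for 1, where 22.0% of all genes were smaller and 22.8% larger. The median member differed by -0.50 and the median gene by 0.03. Without the array that stood apart, 18 were smaller and 3 larger, against 26.1% and 27.0%. By role, the 15 were Polr1b, Polr1c, Nop58, Gar1, Rrp9, Bysl, Rcl1, 6 large-subunit genes (Rrs1, Ppan, Bop1, Nle1, Ddx56 and Nop2), Eif4e and Eif5a. Rrs1 had the largest, -2.26 ± 0.28 (adjusted p = 2.92e-08), followed by Ppan at -1.47 ± 0.25 (adjusted p = 7.04e-06) and Polr1b at -1.35 ± 0.23 (adjusted p = 6.05e-06). Nip7 was the member with a larger difference in study 2, by 1.40 ± 0.36 (adjusted p = 0.00148), and on its second probe set the studies differed by -0.06. For Bysl and Eif4e that value was 0.16 and 0.47 on the second probe set. Of the 7 members higher in both studies, Ppan was among the 15; the others differed between the studies by -0.80 (Cad) to 0.42 (Nop56) and did not pass over all arrays. Without the array Cad also passed as smaller in study 2, at -0.81 (adjusted p = 0.0128), as did the second probe set of Nop56, at -1.15 (adjusted p = 2.95e-04). The 3′ to 5′ excess of the whole granulomas also differed between the studies, 1.63 against 3.28, and its part in these differences was not separated from that of the studies.

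By day, the median member was higher in captured cells than in whole granuloma by 0.78, 0.54, 0.31 and 0.59 at days 7, 17, 33 and 104 of study 1, where the median of all genes was 0.05, 0.04, 0.04 and 0.10. At day 7 of study 1, 41 of 41 members lay above 0. In study 2 the median member was at 0.01, 0.28 and 0.28 at days 7, 17 and 33, at -0.18 at day 49 and at -0.11 at day 105, where the median of all genes was -0.01, 0.01, 0.05, -0.18 and 0.03. The members' median at day 49 thus equalled that of all genes. Without the array it was 0.22 at day 49, and the median gene was 0.03 there.

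Days were next compared within each tissue type of study 2. In captured cells 9 members passed a moderated F test over the 5 days, 22.0% of the members where 15.2% of all genes passed. Without the array that stood apart 4 passed, where 15.4% of all genes did, and 3 of the 4 were among the 9. They were Nle1, Bysl and Nop58, and the fourth was Rrp9. The calls for Ddx18, Eif4e, Heatr1, Npm1, Polr1b and Wdr43 were lost without that array. In whole granuloma 6 members passed (24.4% of all genes), namely Polr1b, Rrs1, Nolc1, Rcl1, Bysl and Nop58, and 20 without the array (35.7%), the same 6 among them. The array is not one of whole granuloma, and both tissue types share 1 estimate of each gene's spread in the fit. No member passed in captured cells or whole granuloma of study 1, where 0.594% and 0.0349% of all genes did, and 1 member each was at an unadjusted p under 0.05. That fit had 1 specimen at day 104. With the date in the title as a random block 3 members passed in captured cells, among 1875 of 8592 genes, a smaller share of the members than of all genes. That setting used 24 single arrays without averaging, so arrays of 1 specimen, among them those of day 104, counted as separate values. The part of the date in the larger count was not separated from that of the arrays.

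The 3′ to 5′ excess moved with the day in the captured cells of study 2. Its mean was 4.66 at day 7 (range 4.35 to 5.07), 4.70 at day 17, 4.51 at day 33, 3.95 at day 49 without the array that stood apart, and 3.46 at day 105 (range 3.10 to 3.88), and the arrays of days 7 and 105 did not overlap. With that array left out and the excess as a covariate, 1 member passed the F test over days in captured cells (9.45% of all genes), and from day 7 to day 105 0 were higher and 0 lower (1.61% and 0.78% of all genes). The parts of the day and of the excess cannot be told apart here. Marker genes were tested over the same days, where over all arrays 24.4% of all genes passed in whole granuloma and 15.2% in captured cells. In whole granuloma of study 2 the F test over all arrays was passed by 9 of 9 smooth muscle genes, 6 of 8 adipocyte, 6 of 7 mesothelium, 6 of 13 plasma cell, 4 of 8 B cell, 5 of 12 fibroblast, 4 of 15 macrophage, 3 of 22 proliferation, 3 of 10 neutrophil and 2 of 9 endothelium genes, and by no T and NK cell or pancreatic gene. In captured cells it was passed by 4 of 12 fibroblast, 3 of 22 proliferation, 2 of 15 macrophage, 2 of 10 neutrophil, 1 of 8 adipocyte and 0 of 13 plasma cell genes, and without the array by 6 macrophage, 5 fibroblast, 4 neutrophil and 2 plasma cell genes. Over all arrays, macrophage (26.7%) and endothelium (22.2%) genes were near the share of all genes in whole granuloma, and proliferation genes (13.6%) below it. In captured cells the proliferation (13.6%), macrophage (13.3%) and adipocyte (12.5%) shares were near or below it. Without the array 15.4% of all genes passed there. The part of the marker genes in the members' day courses was not tested.

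**Figure D3:**
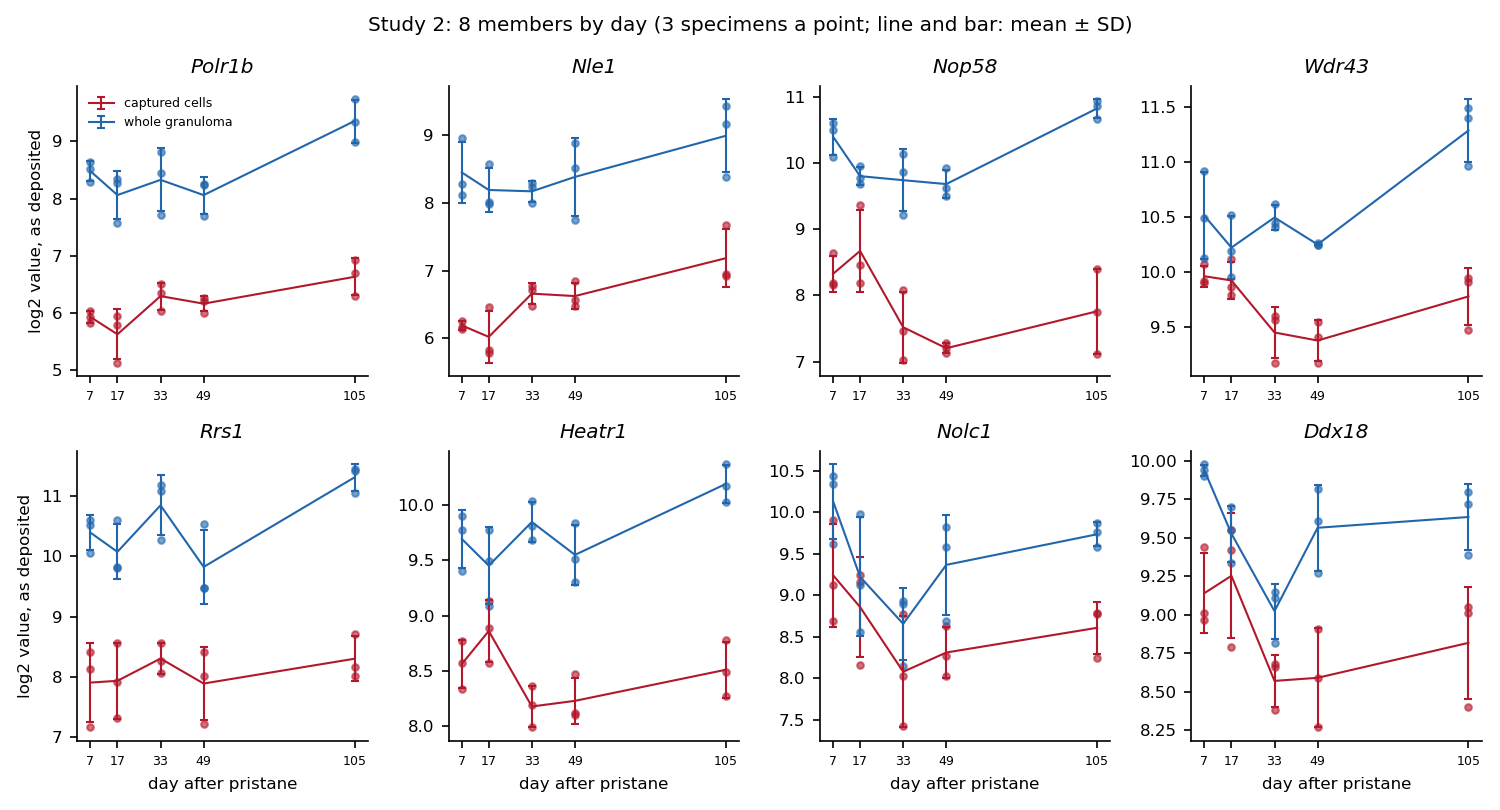
Deposited log2 values by day in study 2 for 8 members past the F test in either tissue type over all arrays, with the array that stood apart left out of the points; points are specimens (3 a day), lines and bars the mean ± SD. Deposited levels are not comparable between the tissue types. In captured cells Nle1 is highest at day 105 and Nop58 lowest at day 49, and in whole granuloma Polr1b and Wdr43 are highest at day 105.

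In captured cells, Nle1, a factor of late large-subunit maturation, was highest at day 105. Its 3 specimens read 6.14, 6.17 and 6.26 at day 7 and 6.92, 6.95 and 7.67 at day 105 (log2, as deposited), and the day means were 6.19 ± 0.06 (SD, n = 3), 6.02 ± 0.38, 6.66 ± 0.15, 6.62 ± 0.20 and 7.18 ± 0.42. The specimens of days 7 and 105 did not overlap. The F test gave adjusted p = 0.0089 over all arrays and 0.00514 without the array, and day 105 minus day 7 was 0.99 ± 0.25 (adjusted p = 0.00618 without the array). Nop58 was lowest at day 49: its means were 8.33 ± 0.27, 8.67 ± 0.62, 7.52 ± 0.53, 7.20 ± 0.08 and 7.76 ± 0.64 (adjusted p = 0.0176; 0.0174 without the array). The 3 specimens of day 49, 7.13, 7.20 and 7.28, lay below all 3 of day 17, 8.19, 8.46 and 9.37. Bysl passed at adjusted p = 0.0395 and 0.0283, with its lowest mean at day 17, 7.81 ± 0.74, and its highest at day 105, 8.85 ± 0.17. The second probe set of Bysl did not pass over all arrays (adjusted p = 0.414).

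Heatr1 and Wdr43 passed over all arrays in captured cells and did not pass without the array, at adjusted p = 0.0638 and 0.0806, with means of 8.56 ± 0.21 at day 7 and 8.18 ± 0.18 at day 33 for Heatr1, and 9.96 ± 0.09 and 9.45 ± 0.23 for Wdr43. Ddx18 likewise gave adjusted p = 0.052 without it.

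In whole granuloma Polr1b had the smallest adjusted p over all arrays, 0.00227. Its specimens read 8.29, 8.51 and 8.64 at day 7 and 8.99, 9.34 and 9.74 at day 105, without overlap, and the means of the 5 days were 8.48 ± 0.18, 8.06 ± 0.42, 8.33 ± 0.55, 8.06 ± 0.32 and 9.36 ± 0.38 (SD, n = 3). Rrs1 (adjusted p = 0.0252) was lowest at day 49, 9.83 ± 0.62, and highest at day 105, 11.31 ± 0.22. Nolc1 (adjusted p = 0.0326) was highest at day 7, 10.13 ± 0.45, and lowest at day 33, 8.66 ± 0.44, and its second probe set did not pass (adjusted p = 0.270). Wdr43 passed without the array at adjusted p = 6.67e-04, with 10.96, 11.40 and 11.49 at day 105 against 10.25, 10.25 and 10.26 at day 49. The members that passed here did not share 1 course: the late maximum of Polr1b, Rrs1 and Wdr43 was not that of Nolc1, and Ddx18 was highest at day 7.

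Between days 7 and 105 of study 2, 1 member was higher and 0 lower in captured cells over all arrays, namely Nle1, where 4.45% of all genes were higher and 2.37% lower (6 members at an unadjusted p under 0.05 in either direction). Without the array the higher ones were Nle1, Rcl1 (0.99) and Rrp9 (0.79), with 7.65% and 3.60% of all genes. In whole granuloma 1 was higher, Polr1b by 0.88, and 0 lower, where 6.05% and 12.9% of genes were (8 members at an unadjusted p under 0.05). Without the array Polr1a, Polr1b and Wdr43 were higher and Hspe1 lower, at -0.78, where 8.65% and 15.6% were. The course over days differed between the tissue types for 0 members over all arrays (4 at an unadjusted p under 0.05), against 7.37% of all genes. Without the array it differed for 4, Heatr1, Nop58, Wdr12 and Wdr43, against 14.0%.

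Genes of the same pathways that are not among the 41 were counted from 4 lists. Of 91 other ribosome biogenesis genes, 55 read higher and 17 lower in captured cells of study 2, and 61 and 5 in study 1, with medians of 0.47 and 0.57. Here the share of higher genes exceeded the background of 34.4% and 31.5% in both studies, while for the 41 members it was 48.8% in study 1 and 29.3% in study 2 (46.3% without the array, against 38.6% of all genes). The 2 with the largest mean difference were Sdad1, at 2.50 ± 0.10 and 1.24 ± 0.14, and Gnl2, at 1.64 ± 0.16 and 1.84 ± 0.22, both factors of large-subunit assembly or export. Of 12 polymerase I factors, 6 were higher and 2 lower in study 2, and 9 and 0 in study 1, among them Taf1d (2.27 and 1.504) and Taf1c (1.19 and 1.03), subunits of the selectivity factor that recruits polymerase I. Of 44 further biosynthesis and chaperone genes, 15 read higher and 13 lower in study 2 (22 and 12 without the array) and 20 and 0 in study 1. Psat1, of serine synthesis, was higher by 0.91 and 1.38, and Prps2, which makes the ribose donor of nucleotides, by 1.06 and 0.94. Of 28 translation initiation factors, 8 were higher and 9 lower in study 2 (12 and 9 without the array), and 6 and 3 in study 1. Over all arrays the shares higher in study 2 of the 44 genes (34.1%) and of the initiation factors (28.6%) were near or below the background. Eif4a2 was lower, at -1.13 and -0.52, and Eif3i higher, at 0.82 and 0.75.

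Markers of cell types were compared in the same way. Of all genes, 34.4% were higher and 35.4% lower in captured cells of study 2, and 31.5% and 29.0% in study 1. Of 13 plasma cell genes tested, 6 read higher and 1 lower in captured cells of study 2, and 5 and 0 in study 1. The shares were 46.2% and 7.69% in study 2 and 38.5% and 0% in study 1, so that the share higher in study 1 was near that of all genes. The mean log2 level of the list of 14 was 8.78 to 10.0 in captured cells and 8.14 to 9.89 in whole granuloma of study 2, and 8.84 to 9.57 and 8.28 to 9.28 in study 1, so plasma cell genes were read in both sample types. Sdc1, the surface marker CD138, read above the array median in every specimen of both. Eaf2, named for its difference in study 2, was at 2.19 and 1.21. Of 22 proliferation genes, 9 read higher and 4 lower in study 2 (40.9% and 18.2%), and 12 and 0 in study 1 (54.55% and 0%). The share of proliferation genes higher in study 2 was near that of all genes. The list's mean level was 8.42 to 9.28 against 7.97 to 9.46, and 7.86 to 9.35 against 7.89 to 8.92, and Mcm5, a replication helicase subunit, differed by -1.47 and 0.44.

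Macrophage genes remained in the captured samples. Of 15, 12 were lower and 1 higher in study 2, and 13 and 0 in study 1, yet their mean level in captured cells was 8.78 to 10.5 and 7.98 to 10.5, against 9.15 to 10.97 and 10.5 to 11.1 in whole granuloma, with Arg1 at -2.17 and -3.92. Fibroblast genes were at 8.74 to 10.5 and 9.02 to 10.6 in captured cells, with 7 and 8 of 12 lower, and Lum at -0.43 and -2.14. All 8 adipocyte and all 9 smooth muscle genes were lower in both studies, among them Thrsp (-4.55 and -5.39) and Actg2 (-4.43 and -5.86). Myh11, a defining smooth muscle gene, was above the array median in 0 of 15 captured specimens of either study. Adipoq, an adipocyte gene, was above it in 6 of 15 captured specimens of study 2 and 7 of 15 of study 1, reaching 9.08 and 9.05. Of 9 endothelium genes 8 and 6 were lower and none higher, with Lyve1 at -1.60 and -2.74, and of 7 mesothelium genes 6 were lower in each study and none higher, with Upk3b at -2.02 and -3.51. The neutrophil list of 10 split, with 3 higher and 5 lower in study 2 against 1 and 3 in study 1, with Lcn2 at -1.70 and -2.60. Of 8 B cell genes 1 was higher and 4 lower in study 2 (median -0.20), and 1 and 1 in study 1 (median 0.21), with Cd22 at -0.71 and -1.32. Of 6 T and NK cell genes 1 was higher in study 2 and 2 in study 1 and none lower, at medians of 0.01 and 0.21, with Zap70 at 0.73 and 1.02. Shares near that of all genes were those of neutrophil genes higher in study 2 and lower in study 1 (30% each). The share of T and NK cell genes higher in study 1 (33.3%) was also near it. The pancreatic list of 8 had 2 higher and 0 lower in study 2 against 0 and 6 in study 1. Cpb1, a pancreatic gene, differed by 0.72 in study 2 and -2.90 in study 1, with the list's mean reaching 10.5 in a captured specimen of study 2 and 11.2 in a whole granuloma of study 1. The part of these cell types in the members' differences was not tested.

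**Figure D4:**
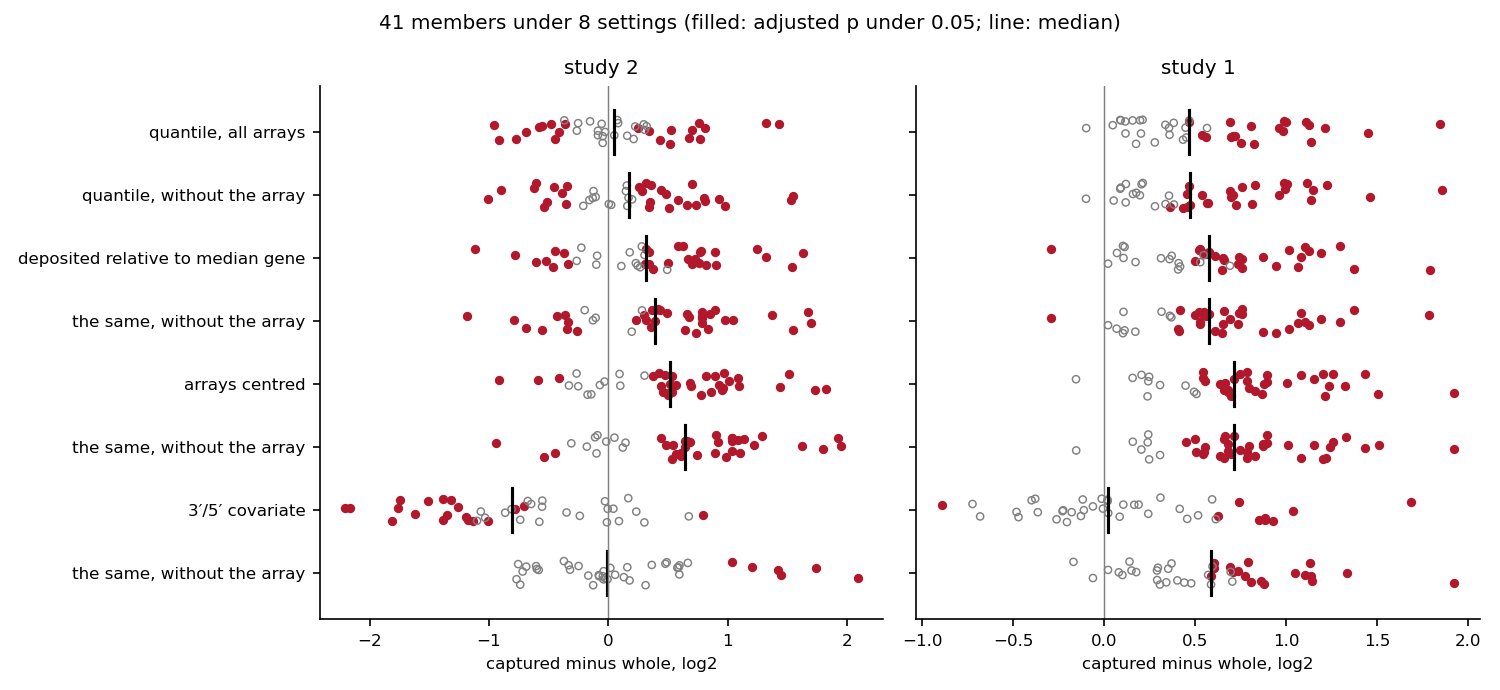
Captured minus whole (log2) of the 41 members under 8 settings in each study; filled points have an adjusted p under 0.05 and the line is the median. In study 2 the median moves from 0.05 with quantile-normalized values to 0.51 with centred arrays and to -0.81 with the 3′ to 5′ covariate, and the median with the covariate is -0.01 when the array that stood apart is left out.

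The count of members past the threshold in study 2 moved with the scale. On deposited values taken relative to the median gene, which itself was lower in captured cells by 1.68 in study 2 and 0.60 in study 1, 21 members were higher and 8 lower in study 2, where 36% and 36.4% of all genes were. With each array centred on its median, 28 were higher and 3 lower (45.7% and 27.1% of all genes), and the median of all genes rose to 0.19. With the 3′ to 5′ difference of each specimen as a covariate, 1 was higher and 18 lower (13.8% and 26.4% of all genes). The array that stood apart had a weight of its own in that setting, since its 3′ to 5′ difference was 0.46 where the other captured arrays of its study were at 3.10 or above. Without it, 6 members were higher and 0 lower, at a median of -0.01, where 9.68% and 7.75% of all genes were. In study 1, 18 were higher and 0 lower with the covariate and without the array, against 23.5% and 21.3% of all genes. Within groups, and without the array, the slope on the 3′ to 5′ difference passed the threshold for 0 of 41 members and 0 of 8592 genes by limma. In study 2 the sample types shared no value of the 3′ to 5′ difference without that array, so the parts of the covariate and the sample type cannot be told apart.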

How the data were processed

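RNA of captured cells and whole granuloma was amplified in 2 rounds and read on 1-colour arrays of 22690 probe sets. The values used are the authors' deposited log2 values per probe set, computed with Partek's RMA method, per the submitters' processing notes, with versions not given in the sources used here. Of the probe sets, 20380 list 1 gene symbol, 691 several and 1606 none, and 20351 were named through RefSeq.

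Arrays with 1 specimen code were averaged to 53 specimen averages of 33 codes in 19 groups. Captured and whole samples were compared after quantile normalization over all 82 arrays, since their deposited medians differ, and days on the deposited values. Models were fitted to all 8592 genes above their array's median in at least 3 specimen averages, by lmFit and eBayes of limma 3.58.1 (R 4.3.3), with the group as the factor and the specimen code as a random block (correlation 0.112 quantile-normalized, 0.121 deposited). The same code in both sample types was taken as 1 specimen, which the labels do not state. The letter that follows the code in titles of study 2 differs between some arrays taken as 1 specimen. Contrasts weight days equally. Benjamini-Hochberg adjustment ran over all 8592 genes with a threshold of 0.05. SE is that of the fit and SD is over specimens. The number of arrays and specimens limits the precision. Tables and figures were made with Python 3.11.15, pandas 2.3.3, numpy 2.4.6 and matplotlib 3.10.9.

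The fit was tested on simulated data: for captured minus whole in study 2, 67 of 67 genes changed by 1 (log2) and 40 of 67 changed by 0.5 were recovered. For the F test over days in captured cells of study 2, 23 of 67 genes changed by 1 and 0 of 67 changed by 0.5 were recovered. Among unchanged genes there were 13 false calls in the first comparison and 8 in the second. The simulated data took their spread from quantile-normalized values, with the change placed at day 105. The reported day tests used deposited values, so their own recovery was not tested.

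The members, pathway lists and marker lists were chosen with earlier results of these data known. Values are printed for members past the threshold with 1 sign in both studies (up to 10, by the largest mean difference), with opposite signs, or past the F test over days in study 2 (up to 8), and for Myc. From each pathway list up to 2 genes, and from each marker list the gene with the largest absolute difference in either study, are named. Nip7, Npm1, Bysl, Gar1, Nop58 and Nop2 are given with values that were chosen after they were seen.

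Alternatives were the scaling, the 3′ to 5′ difference as a covariate, no block, arrays not averaged, no filter, other probe sets of a gene, code 5 of day 7 of study 1 as 2 specimens, each code left out in turn, days 104 and 105 left out, and the date in the title as a block. The date as a block was run on 24 single arrays of captured cells of study 1, not averaged by specimen. Leaving out 1 array, alone or together with another setting, was added after seeing the data.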

Additional observations from a re-analysis of the deposited data

Results flagged for a closer look

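In captured cells of study 1, 3 members each had 1 of 4 specimens of a day far from the others (Dixon's test). Ncl at day 17 had its lowest specimen at 11.11 and the others at 11.81 to 11.91. Rrs1 at day 17 had its highest specimen at 8.79 and the others at 8.47 to 8.52. Hspe1 at day 7 had its highest specimen at 12.27 and the others at 11.55 to 11.61. Chance marks about 1 in 20 groups in this way. Only days 7 and 17 of captured cells in study 1 had 4 specimens. The 3 flags, over 41 members at both days, are no more than that rate gives.

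Captured minus whole differed between the studies by the interaction test for 16 members, given as study 2 minus study 1 on the log2 scale. The difference was -1.32 for Bop1, -1.25 for Bysl, -0.92 for Ddx56, -1.11 for Eif4e, -0.80 for Eif5a, -1.0 for Gar1, -0.96 for Nle1 and -0.89 for Nop2. It was -1.01 for Nop58, -1.35 for Polr1b, -0.54 for Polr1c, -1.47 for Ppan, -0.70 for Rcl1, -0.74 for Rrp9 and -2.26 for Rrs1. For Nip7 it was 1.40.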

How the results depend on the processing

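The 20 specimen codes with both sample types pair captured and whole samples through the block. With no replicate block, 11 members were higher and 10 lower in study 2 and 19 and 0 in study 1, the interaction gave 1 and 15, and the F tests over days 9 and 6. The block changed no other call than 1 in each study's tissue comparison. In study 2, counts of higher and lower members were 12 and 10. The count higher became 21 on deposited values relative to the median gene, 0 with no shift, 28 with centred arrays, 1 with the 3′ to 5′ covariate and 19 without the array that stood apart. Without that array it became 27 on deposited values relative to the median gene, 29 centred, 6 with the covariate and 21 over the mean of probe sets. The count lower became 38 with no shift, 3 centred, 18 with the covariate and 5 on second probe sets, and without the array 3 centred, 0 with the covariate and 6 on second probe sets. Centring gave 3926 genes higher and 2327 lower of all tested in study 2, against 2959 and 3038. In study 1, 20 higher became 3 with no shift, 31 centred and 8 with the covariate. Without the array it became 31 on deposited values relative to the median gene, 34 centred, 18 with the covariate and 32 over the mean of probe sets. The 0 lower became 1 on deposited values relative to the median gene (with or without the array), 5 with no shift and 1 with the covariate.

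For the difference between studies, 1 larger became 2 on deposited values relative to the median gene, 0 with no shift, 4 centred, 0 with the covariate, 2 with arrays not averaged, and 3 over the mean of probe sets, on second probe sets, without days 104 and 105, or without the array. Without the array it became 5 on deposited values relative to the median gene, 8 centred, 3 with the covariate, 4 over the mean of probe sets and 4 on second probe sets. The 15 smaller became 34 with no shift, 25 with the covariate, and 9 on second probe sets with or without the array. For days in captured cells of study 2, 9 became 4 with the covariate, 4 without the array and 1 with both. In whole granuloma 6 became 1 with arrays not averaged, 3 on second probe sets, 20 without the array and 19 with the covariate too. In captured cells of study 1, 0 became 3 with the date as a block and arrays not averaged. Day 105 minus day 7 in captured cells gave 1 higher, which became 4 with the covariate, 4 with arrays not averaged, 2 over the mean of probe sets, 2 with code 5 as 2 specimens, 3 without the array and 0 with array left out and covariate. The 0 lower became 1 over the mean of probe sets and 2 on second probe sets. In whole granuloma 1 higher became 4 quantile-normalized, 2 with the covariate, 0 with arrays not averaged, 4 over the mean of probe sets, 3 on second probe sets, 3 without the array and 2 with the covariate too. The 0 lower became 1 without the array, with or without the covariate. The tissue difference in days became 2 over the mean of probe sets, 3 on second probe sets, and 4 without the array, with or without the covariate.

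With each specimen left out in turn, members higher in study 2 ranged from 8 (without code 3 of day 49) to 20 (without code 2 of day 49, which holds the array that stood apart) and lower from 10 to 12. In study 1 they ranged from 18 to 23 and 0 to 0, and in the difference between studies from 1 to 3 and 12 to 18. Days in captured cells ranged from 3 (without code 2 of day 105) to 28 (without code 1 or 3 of day 49), and in whole granuloma from 0 (without code 2 of day 105) to 18 (without code 2 of day 49). Day 105 minus day 7 ranged from 0 to 4 in captured cells and 0 to 3 in whole granuloma, and the tissue difference in days from 0 to 11.

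Signs turned for some called members. In study 2 with the covariate, Cad was at -1.10, Ddx18 -0.68, Eif4a1 -0.58, Nolc1 -0.24, Npm1 -1.03 and Wdr43 -0.81. On second probe sets Ddx18 was at -0.06, Eif4a1 -0.89, Eif4e 0.48 and Npm1 -0.15, and over the mean of probe sets Eif4a1 was at -0.88. Eif5a and Hspd1 were at 0.34 and 0.11 on deposited values relative to the median gene and at 0.54 and 0.30 centred. In study 1 with the covariate Fbl was at -0.13, Nop2 -0.01, Shmt2 -0.11 and Wdr43 -0.12. The values with the covariate in this paragraph, for both studies, are from the fit that holds the array that stood apart. In the difference between studies on second probe sets Bysl was at 0.16, Eif4e 0.47 and Nip7 -0.06. The cause was not tested.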
